A study of Mus musculus with 23 samples.

Results

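The 4 Hox clusters of the mouse hold 39 genes that encode homeodomain transcription factors, and their RNA was read here in sorted blood stem and progenitor cells with and without the JAK2 V617F mutation. The members were taken by name, as every gene of the deposited table whose symbol is Hox, a cluster letter from a to d and a number, 39 of 24454 genes in all. They comprised 11 Hoxa, 10 Hoxb, 9 Hoxc and 9 Hoxd genes. The rule itself goes by gene names only.

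The 23 RNA-seq libraries came from C57BL/6 mice, either SclCre;V617F or wild-type (WT). In the former, tamoxifen turns on a Cre under Scl control and with it JAK2 V617F. Both genotypes received tamoxifen over 5 days, and marrow of tibia and femur was taken 12 weeks afterwards. The age of the mice was not in the labels. The 8 groups were V617F CD41-positive HSC, V617F CD41-negative HSC, WT CD41-positive HSC, WT CD41-negative HSC, V617F MkP, V617F LT-HSC, WT MkP and WT LT-HSC, with 3 libraries each except WT CD41-positive HSC, which had 2. LT-HSC were long-term hematopoietic stem cells sorted as lineage-negative, cKit-positive, Sca-1-positive, CD48-negative and CD150-positive, and the CD41 fractions split that same gate by CD41, the integrin alpha chain of megakaryocytes and platelets. MkP were megakaryocyte progenitors sorted as lineage-negative, cKit-positive, Sca-1-negative, CD150-positive and CD41-positive. The CD41 fractions were made with SMART-Seq v4 and LT-HSC and MkP with SMART-Seq v2, so levels of the 2 protocols were normalised apart and never set against each other in a test. By the labels, V617F LT-HSC were male and WT LT-HSC and all MkP female, so genotype in LT-HSC, and population in V617F cells, cannot be told apart from sex. In the CD41 fractions, V617F number 2 was male in both fractions and the rest were female.

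Hox proteins bind DNA together with TALE homeodomain partners of the Pbx and Meis families, and the order of the genes along each cluster follows the order in which they are used along the body axis. In blood, genes of the HoxA and HoxB clusters are known to be expressed in stem cells and to decline as cells differentiate. Hoxa9 is known to act with Meis1 in keeping stem cells and in leukemia. MLL (Kmt2a) with menin is known to keep Hox genes active, and Polycomb complexes to repress them. JAK2 V617F is a constantly active form of the kinase that signals for the thrombopoietin and erythropoietin receptors, and is the most common mutation of the myeloproliferative neoplasms.

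The promoter windows of the 5 Hoxa genes whose levels differed between CD41 fractions in both genotypes are shown first. RefSeq windows on build GRCm38.p6, from 250 bases before to 50 after the start, were matched for 22 of the 39 members, with 24 windows. Those shown lie on the minus strand of chromosome 6, at chr6:52213018-52213317 (Hoxa3), chr6:52204538-52204837 (Hoxa5), chr6:52218524-52218823 (Hoxa7), chr6:52227321-52227620 (Hoxa9), and chr6:52240805-52241104 and chr6:52234890-52235189 (the upstream and downstream start of Hoxa10). Capitals mark matches to any of 5 letter strings searched on both strands, TGATTNAT (a PBX-HOX pair), TGACAG (MEIS), TAATTA (a homeodomain core), TTTATNG (CDX and posterior HOX) and CCAAT (NF-Y).
Hoxa3: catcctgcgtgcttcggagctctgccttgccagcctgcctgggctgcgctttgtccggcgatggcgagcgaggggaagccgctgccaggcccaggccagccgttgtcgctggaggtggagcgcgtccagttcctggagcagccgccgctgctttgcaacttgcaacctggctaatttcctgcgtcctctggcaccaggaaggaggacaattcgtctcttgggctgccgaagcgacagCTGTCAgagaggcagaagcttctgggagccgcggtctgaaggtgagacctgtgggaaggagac
Hoxa5: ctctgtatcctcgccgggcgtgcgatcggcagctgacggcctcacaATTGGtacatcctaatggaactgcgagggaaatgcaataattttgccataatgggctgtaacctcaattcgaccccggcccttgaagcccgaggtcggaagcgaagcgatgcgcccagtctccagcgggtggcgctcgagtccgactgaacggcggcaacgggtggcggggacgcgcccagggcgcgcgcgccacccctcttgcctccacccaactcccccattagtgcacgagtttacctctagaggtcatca
Hoxa7: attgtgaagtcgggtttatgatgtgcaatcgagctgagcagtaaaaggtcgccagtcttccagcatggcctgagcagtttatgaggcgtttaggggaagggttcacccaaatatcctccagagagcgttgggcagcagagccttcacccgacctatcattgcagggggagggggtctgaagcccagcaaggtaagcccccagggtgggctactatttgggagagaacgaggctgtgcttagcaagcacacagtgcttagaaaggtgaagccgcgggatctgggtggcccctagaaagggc
Hoxa9: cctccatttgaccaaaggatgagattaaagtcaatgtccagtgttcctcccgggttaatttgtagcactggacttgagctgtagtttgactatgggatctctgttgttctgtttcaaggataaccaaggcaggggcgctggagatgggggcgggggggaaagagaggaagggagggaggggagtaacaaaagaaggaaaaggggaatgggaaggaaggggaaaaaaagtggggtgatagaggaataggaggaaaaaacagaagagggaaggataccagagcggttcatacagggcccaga
Hoxa10 upstream start: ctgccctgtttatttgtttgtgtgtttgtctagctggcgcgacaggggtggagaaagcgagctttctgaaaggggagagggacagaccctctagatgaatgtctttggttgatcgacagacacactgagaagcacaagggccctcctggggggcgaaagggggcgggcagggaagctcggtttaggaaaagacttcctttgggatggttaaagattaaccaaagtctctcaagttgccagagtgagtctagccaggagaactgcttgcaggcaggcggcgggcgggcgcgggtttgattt
Hoxa10 downstream start: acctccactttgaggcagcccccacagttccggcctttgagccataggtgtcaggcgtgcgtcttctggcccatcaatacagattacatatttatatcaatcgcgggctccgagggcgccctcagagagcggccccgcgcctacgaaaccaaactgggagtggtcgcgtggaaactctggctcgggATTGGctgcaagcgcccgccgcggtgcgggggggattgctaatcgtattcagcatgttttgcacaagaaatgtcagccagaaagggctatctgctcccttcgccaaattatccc
The Hoxa3 window held 1 match, to the MEIS string read on the other strand, and the Hoxa5 window and the downstream Hoxa10 window each held 1 match to the NF-Y string, also on the other strand. No window of these 6 held more than 1 match, so none overlapped, and those of Hoxa7, Hoxa9 and the upstream start of Hoxa10 held no match, which says only that these letters are not in these bases. Over all 24 Hox windows, CCAAT was found in 15, against 37.4% of the 32851 windows of the table. The other four strings were each found in 2 of the 24 Hox windows, against 3.22% of all windows for the PBX-HOX pair, 19.2% for MEIS, 5.29% for the homeodomain core and 10.9% for the CDX string. The number of CG pairs was 20 in the Hoxa3 window, 29 in that of Hoxa5, 9 in that of Hoxa7, 4 in that of Hoxa9 and 12 and 21 in those of Hoxa10, against a median of 7 over all windows. No factor binding or DNA methylation was measured here.

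The depth of the libraries was 17.6 to 49.2 M counts. Between 15819 and 16587 genes had counts in libraries of the CD41 fractions, against 14634 to 15697 genes in V617F LT-HSC and MkP and 11483 to 13805 genes in WT LT-HSC and MkP. The number of Hox members with counts was 21 or 22 in V617F CD41-positive HSC, 22 to 25 in V617F CD41-negative HSC, 22 or 23 in WT CD41-positive HSC and 19 to 22 in WT CD41-negative HSC. It was 17 to 20 in V617F MkP, 15 to 20 in V617F LT-HSC, 8 or 9 in WT MkP and 11 to 16 in WT LT-HSC. WT libraries of the SMART-Seq v2 protocol therefore held the fewest Hox members, and in them some members had many counts in 1 library and none in another of the same group. The gates were checked on their own markers: Itga2b, the gene of CD41, averaged 697 ± 74.5 CPM in V617F CD41-positive HSC and 115 ± 20 CPM in V617F CD41-negative HSC (SD, n = 3 each). Ly6a, the gene of Sca-1, averaged 1.82 ± 0.81 CPM in V617F MkP and 174 ± 57.0 CPM in V617F LT-HSC (SD, n = 3 each). CPM here are counts per M of the scaled library total. In WT, Itga2b averaged 855 ± 86.1 CPM in the 2 CD41-positive libraries and 187 ± 42.6 CPM in the 3 CD41-negative ones, and Ly6a 1.29 ± 1.02 CPM in MkP and 258 ± 237 CPM in LT-HSC (SD).

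Hox RNA in these cells came almost wholly from the HoxA and HoxB clusters. Over all libraries, the Hoxa genes (GRCm38.p6, chr6:52155367-52260880) held 97067 counts, the Hoxb genes (chr11:96194316-96368254) 17726, the Hoxc genes (chr15:102921131-103036856) 619 and the Hoxd genes (chr2:74668225-74765142) 1 count, in Hoxd4. Counts were found for 27 members, 10 Hoxa, 9 Hoxb, 7 Hoxc and 1 Hoxd. The other 12 stood at 0 in all 23 libraries, namely Hoxa13, Hoxb13, Hoxc11, Hoxc12 and 8 Hoxd genes. A count of 0 allows a level of up to 3 counts, 0.0597 to 0.171 CPM over the libraries, and covers counting error only. After the filter on low counts, 19 members were tested in the CD41 fractions (9 Hoxa, 7 Hoxb and 3 Hoxc) and 15 in LT-HSC and MkP (8 Hoxa, 6 Hoxb and Hoxc6).

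**Figure D1:**
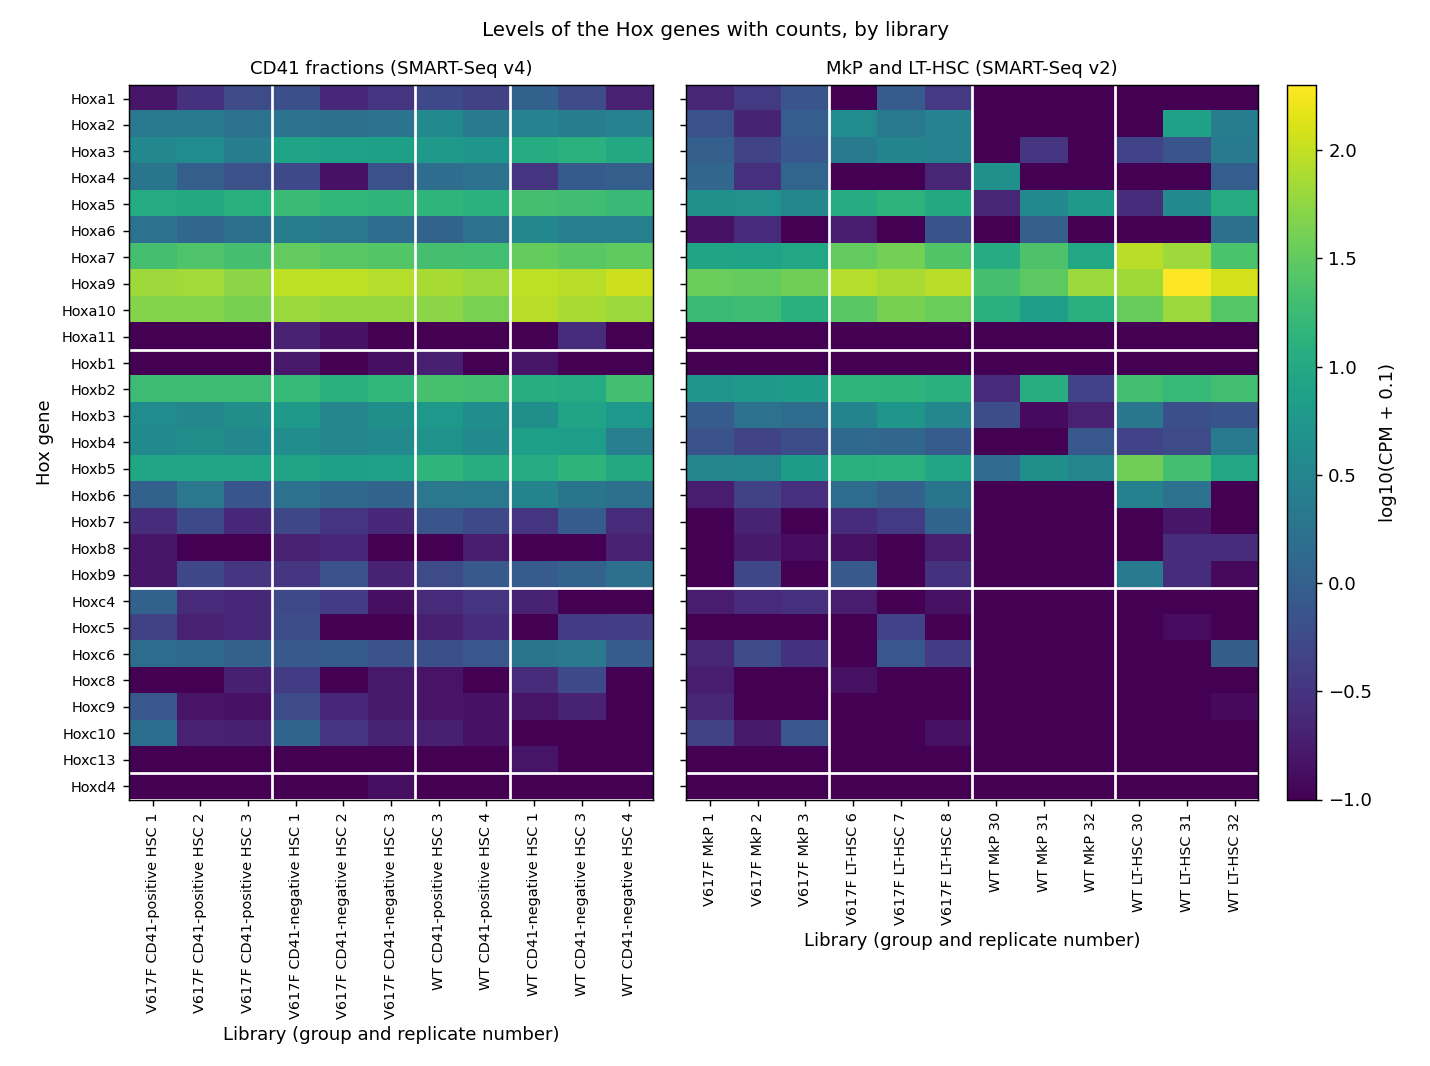
Level of the 27 Hox genes with counts, as log10 of CPM plus 0.1, in each of the 23 libraries, with the CD41 fractions (SMART-Seq v4) on the left and MkP and LT-HSC (SMART-Seq v2) on the right. Hoxa5, Hoxa7, Hoxa9, Hoxa10 and Hoxb2 form the bright bands in the CD41 fractions, 12 Hox genes with no count are not drawn, and WT MkP libraries have the fewest members with counts.

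Per unit of gene length, Hoxa9 had the highest mean level of any Hox gene in each of the 8 groups. Its level in RPKM, CPM per kilobase of the deposited gene length, averaged 19.5 ± 2.71 in V617F CD41-positive HSC, 28.8 ± 1.89 in V617F CD41-negative HSC, 21.3 ± 2.55 in WT CD41-positive HSC and 30.9 ± 3.68 in WT CD41-negative HSC (SD, n = 3, 3, 2 and 3). With SMART-Seq v2 it averaged 11 ± 0.84 RPKM in V617F MkP, 25.4 ± 2.53 in V617F LT-HSC, 11.8 ± 7.12 in WT MkP and 40.2 ± 20.9 in WT LT-HSC (SD, n = 3 each). Together Hoxa7, Hoxa9 and Hoxa10, neighbours in the cluster, made up 65.3% to 89.3% of the Hox counts of a library.

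Behind Hoxa9, the order of the next genes was only partly resolved. In V617F CD41-positive HSC, Hoxa10 followed at 14.8 ± 1.34 RPKM, then Hoxa7 at 11.4 ± 1.07, Hoxb2 at 11 ± 0.016, Hoxa5 at 5.84 ± 0.611 and Hoxb5 at 4.55 ± 0.041. Hoxa7 and Hoxb2 were within their spread of each other there. In V617F CD41-negative HSC the order was Hoxa10 at 19.6 ± 0.827 RPKM, Hoxa7 at 14.8 ± 1.41, Hoxb2 at 8.86 ± 1.37, Hoxa5 at 8.42 ± 0.953 and Hoxb5 at 4.10 ± 0.314, with Hoxb2 and Hoxa5 within their spread. WT CD41-positive HSC had Hoxa10 at 15.3 ± 2.21 RPKM, Hoxb2 at 12.7 ± 0.811, Hoxa7 at 10.6 ± 0.41, Hoxa5 at 7.11 ± 0.583 and Hoxb5 at 6.78 ± 1.2. In WT CD41-negative HSC these genes stood at 24.0 ± 3.92 RPKM for Hoxa10, 15.9 ± 1.28 for Hoxa7, 10.1 ± 1.02 for Hoxa5, 8.73 ± 3.50 for Hoxb2 and 6.11 ± 1.07 for Hoxb5. Hoxb2 thus ranked above Hoxa5 in both CD41-positive groups, by more than the spread of the libraries.

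In MkP and LT-HSC the same 6 genes led. V617F MkP had Hoxa10 at 5.18 ± 1.08 RPKM, Hoxa7 at 4.44 ± 0.351, Hoxb2 at 3.61 ± 0.422, Hoxb5 at 2.25 ± 1.05 and Hoxa5 at 2.20 ± 0.376. Hoxa10 and Hoxa7 overlapped there, as did Hoxb5 with Hoxb2 and with Hoxa5. V617F LT-HSC had Hoxa7 at 16.8 ± 3.99 RPKM, Hoxa10 at 11.4 ± 2.14, Hoxb2 at 8.33 ± 0.60, Hoxa5 at 6.07 ± 0.919 and Hoxb5 at 5.97 ± 1.09. In WT MkP the means were 7.47 ± 3.97 RPKM for Hoxa7, 3.15 ± 0.867 for Hoxa10, 2.44 ± 3.95 for Hoxb2, 1.70 ± 1.55 for Hoxa5 and 1.54 ± 0.809 for Hoxb5. In WT LT-HSC they were 30.4 ± 17.2 RPKM for Hoxa7, 13.2 ± 6.20 for Hoxa10, 12.0 ± 7.66 for Hoxb5, 11.3 ± 1.33 for Hoxb2 and 2.63 ± 2.93 for Hoxa5. The WT spreads were wide, and Hoxa7 and Hoxa9 were not resolved from each other, since in 1 WT library of each population Hoxa7 stood above Hoxa9.

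CD41 marks the part of the stem cell gate that carries megakaryocyte genes, and the first comparison was of Hox genes between the CD41-positive and CD41-negative fractions of V617F marrow. In V617F, 5 Hox genes were lower in CD41-positive than in CD41-negative HSC, all in the HoxA cluster and by 1.30- to 2.42-fold, and none was higher. They were Hoxa3, an anterior gene known for patterning the pharyngeal region, Hoxa5, known for lung and axial patterning, and Hoxa7, Hoxa9 and Hoxa10, known from blood and leukemia. The 5 were of 19 members tested, whereas 34.3% of all 14467 genes passed in this comparison, 17.9% as lower and 16.4% as higher, so the share of Hox genes that passed was near the background. By cluster, 5 of 9 Hoxa genes, 0 of 7 Hoxb genes and 0 of 3 Hoxc genes passed. In bulk samples such as these, fewer cells that carry a gene and less RNA per cell cannot be told apart.

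Hoxa3 (Entrez 15400, chr6:52169059-52213067) stood at 3.42, 3.84 and 2.3 CPM in V617F CD41-positive HSC 1 to 3, against 8.11, 7.64 and 7.38 CPM in V617F CD41-negative HSC. Every CD41-positive library was below every CD41-negative one, and the difference was -1.28 on the log2 scale (SE 0.22), 2.42-fold lower, with an adjusted p of 7.45e-04 in edgeR's quasi-likelihood test. Hoxa9 (Entrez 15405, chr6:52223097-52227370) had 65.5, 69.8 and 53.0 CPM in CD41-positive HSC and 96.3, 96.8 and 86.0 CPM in CD41-negative HSC. These groups did not overlap either, and Hoxa9 was 1.48-fold lower, with a log2 change of -0.57 (SE 0.13) and an adjusted p of 0.00568. Hoxa5 (Entrez 15402, chr6:52201754-52204587) was at 10.8, 9.92 and 12.2 CPM in CD41-positive HSC, against 17.8, 15.2 and 14.4 CPM in CD41-negative HSC, 1.44-fold lower (log2 -0.53, SE 0.16, adjusted p = 0.0213).

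Hoxa10 (Entrez 15395, chr6:52231197-52240854) had 48.9, 49.1 and 41.7 CPM in V617F CD41-positive HSC and 64.4, 60.7 and 59.4 CPM in V617F CD41-negative HSC. It was 1.32-fold lower, at -0.40 on the log2 scale (SE 0.14, adjusted p = 0.0388). For Hoxa7 (Entrez 15404, chr6:52215623-52218573) the values were 21.0, 24.7 and 21.1 CPM in CD41-positive HSC, against 31.8, 28.6 and 26.4 CPM in CD41-negative HSC. Its change was -0.38 (SE 0.13), 1.30-fold lower, with an adjusted p of 0.043. Again no CD41-positive library reached a CD41-negative one for either gene. Hoxa3 and Hoxa9 passed under all 12 alternatives tried, while Hoxa10 passed in none of the 6 fits that left out 1 library, Hoxa7 in 1 and Hoxa5 in 3. With both libraries of the male number 2 left out, an alternative added after seeing the data, 2 of the 5 passed, Hoxa3 and Hoxa9.

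None of the HoxB genes passed, and the difference between the clusters was not tested. Of the 7 tested, 4 had lower values in CD41-positive HSC and 3 higher ones. Hoxb2 (Entrez 103889, chr11:96351632-96354020, plus strand), which works in hindbrain patterning, stood at 18.0, 17.9 and 18.0 CPM in V617F CD41-positive HSC and at 16.2, 11.9 and 15.2 CPM in V617F CD41-negative HSC. The 3 CD41-positive values were nearly equal and all above the CD41-negative ones, but the log2 difference of 0.31 did not pass (95% interval -0.19 to 0.82, adjusted p = 0.316). Hoxb5 (Entrez 15413, chr11:96303512-96306121, plus strand), known as a marker of long-term stem cells in the mouse, was at 8.60, 8.72 and 8.58 CPM in CD41-positive HSC and 8.38, 7.19 and 7.73 CPM in CD41-negative HSC. Its difference of 0.15 did not pass (95% interval -0.24 to 0.54, adjusted p = 0.55). In all, the groups did not overlap for 8 of 19 members, the 5 that passed as lower and Hoxb2, Hoxb5 and Hoxc6 with higher values, which is 42.1% against 56.1% of all genes. The median log2 difference was -0.40 over the Hoxa genes tested, -0.03 over the Hoxb genes, -0.09 over all 19 members and -0.02 over all genes. Over the 14 members that did not pass it ran from -0.42 for Hoxa6 to 1.56 for Hoxa4, whose adjusted p was 0.0942.

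**Figure D2:**
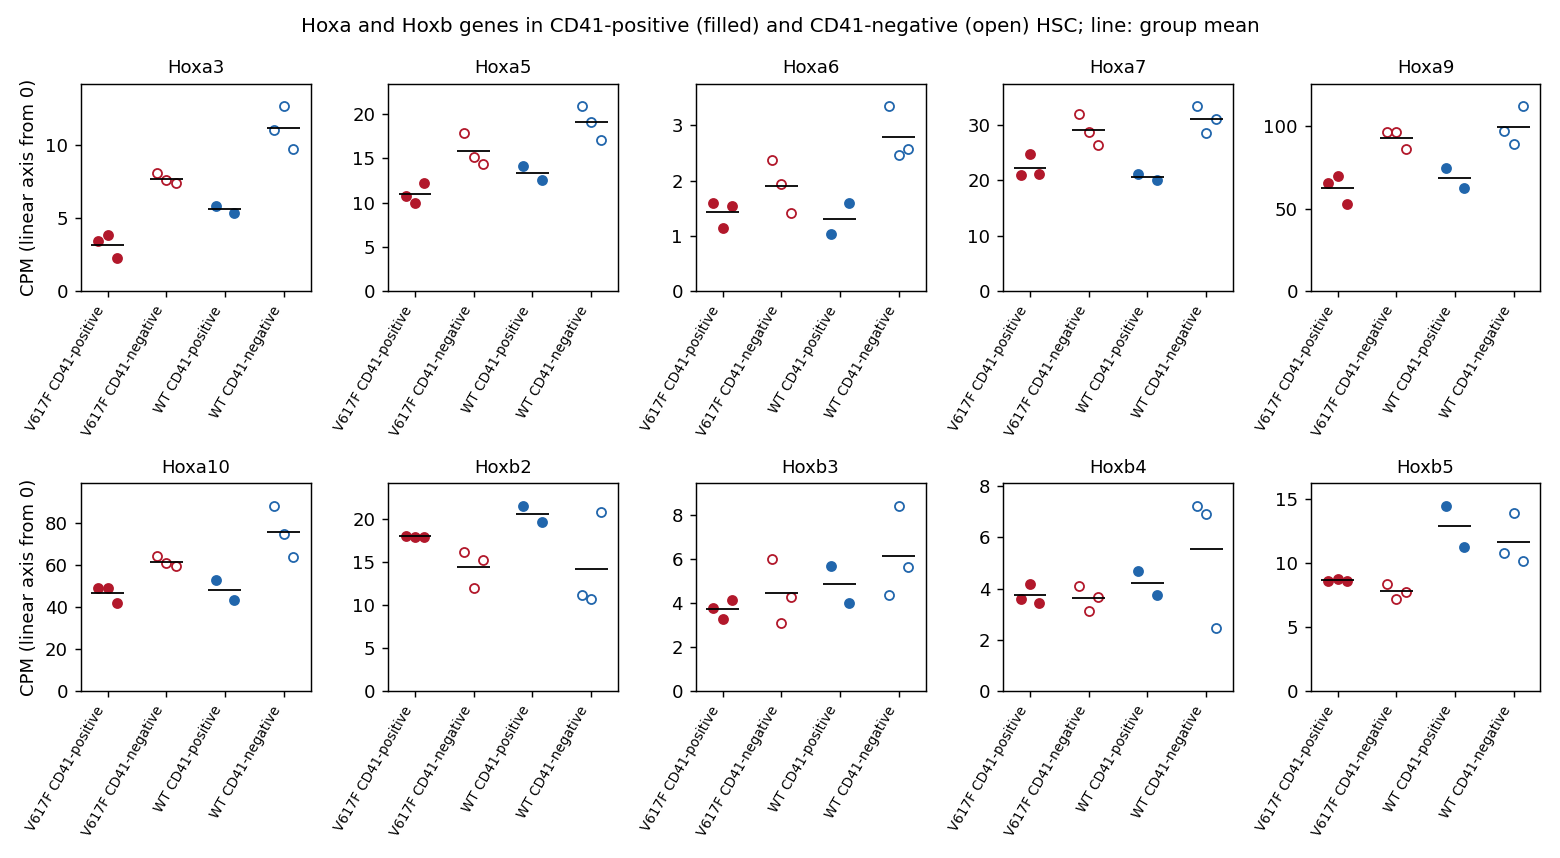
CPM of 10 Hox genes in each library of the CD41 fractions, on linear axes from 0, with filled points for CD41-positive and open points for CD41-negative HSC, V617F in red and WT in blue, and a line at each group mean. For Hoxa3, Hoxa5, Hoxa7, Hoxa9 and Hoxa10 every CD41-positive library lies below every CD41-negative one of its genotype, and for Hoxb5 the WT fractions overlap.

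WT cells gave the same comparison in separate libraries, with only 2 in the CD41-positive group. In WT, 7 of 19 members were lower in CD41-positive HSC and none was higher, against 34% of all genes that passed, 18.2% as lower and 15.7% as higher. The 7 were Hoxa3, Hoxa5, Hoxa6, Hoxa7, Hoxa9, Hoxa10 and Hoxc6, hence 6 of 9 Hoxa genes, 0 of 7 Hoxb genes and 1 of 3 Hoxc genes. All 5 genes that passed in V617F were among them. Folds ran from 1.43-fold lower for Hoxa5 to 2.46-fold lower for Hoxc6.

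Hoxa3 had 5.87 and 5.39 CPM in WT CD41-positive HSC, against 11, 12.7 and 9.72 CPM in WT CD41-negative HSC, and was 1.98-fold lower (log2 -0.99, SE 0.24, adjusted p = 0.00889). Hoxa10 was at 53.0 and 43.2 CPM in CD41-positive HSC and at 88.2, 74.7 and 63.6 CPM in CD41-negative HSC, 1.57-fold lower (log2 -0.65, SE 0.16, adjusted p = 0.00889). Hoxa9 was at 74.5 and 62.9 CPM in CD41-positive HSC, against 97.3, 89.1 and 112 CPM in CD41-negative HSC, 1.45-fold lower (log2 -0.54, SE 0.15, adjusted p = 0.017). Both CD41-positive libraries lay below all 3 CD41-negative libraries for each of these genes. Hoxa7 had 21.2 and 20 CPM in CD41-positive HSC and 33.4, 28.4 and 31 CPM in CD41-negative HSC, 1.5-fold lower (log2 -0.59, SE 0.15, adjusted p = 0.0122). Hoxa5 had 14.1 and 12.6 CPM in CD41-positive HSC and 20.9, 19.1 and 17.1 CPM in CD41-negative HSC, 1.43-fold lower (log2 -0.51, SE 0.18, adjusted p = 0.0419). These groups were apart as well.

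The other 2 genes that passed in WT were at low levels. Hoxa6 (Entrez 15403, chr6:52204858-52208672), which lies between Hoxa5 and Hoxa7, stood at 1.03 and 1.59 CPM in WT CD41-positive HSC, against 3.35, 2.46 and 2.57 CPM in WT CD41-negative HSC, 2.12-fold lower (log2 -1.08, SE 0.36, adjusted p = 0.037). In V617F it was at 1.59, 1.15 and 1.55 CPM in CD41-positive HSC and 2.38, 1.93 and 1.41 CPM in CD41-negative HSC, groups that overlapped. Hoxc6 (Entrez 15425) was at 0.538 and 0.689 CPM in WT CD41-positive HSC and at 1.76, 2.02 and 0.806 CPM in WT CD41-negative HSC, 2.46-fold lower (log2 -1.30, SE 0.47, adjusted p = 0.0492). In V617F it was at 1.37, 1.30 and 0.938 CPM in CD41-positive HSC, above the 0.747, 0.764 and 0.600 CPM in CD41-negative HSC, and did not pass (log2 0.76, adjusted p = 0.164). Hoxc6 was thus the 1 gene that passed in WT with values on the other side in V617F. Over 10 alternative fits the WT call held in 4 for Hoxa6 and in 2 for Hoxc6, which was also lost with RLE size factors.

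Hoxb2 was at 21.6 and 19.7 CPM in WT CD41-positive HSC, against 11.1, 10.7 and 20.8 CPM in WT CD41-negative HSC, so that CD41-negative HSC 4 stood with the CD41-positive libraries. Its log2 difference of 0.53 did not pass (95% interval -0.02 to 1.09, adjusted p = 0.121). Without that library Hoxb2 passed as higher, at 0.92, and Hoxb4, a gene known for expanding stem cells when overexpressed, passed as lower. Hoxb4 was at 4.69 and 3.75 CPM in WT CD41-positive HSC, against 7.24, 6.89 and 2.47 CPM in WT CD41-negative HSC, and with all libraries it did not pass (log2 -0.39, adjusted p = 0.442). Hoxb5 was at 14.5 and 11.2 CPM in CD41-positive HSC and 10.8, 13.9 and 10.1 CPM in CD41-negative HSC, with overlapping groups (log2 0.15, 95% interval -0.28 to 0.58, adjusted p = 0.58). The median over the tested Hoxa genes was -0.54, over the Hoxb genes -0.08, over all members -0.39 and over all genes -0.04. The number of calls moved with single libraries, for Hox genes and all genes alike. Without CD41-positive HSC 4, 0 members passed (8.18% of all genes), and without CD41-positive HSC 3, 2 (13.1%). Without CD41-negative HSC 1, 4 passed (27.1%), without CD41-negative HSC 3, 5 (25.6%), and without CD41-negative HSC 4, 9 (49.2%). Fitting only the 2 WT groups left 1 call, Hoxa3, with 14.4% of all genes.

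**Figure D3:**
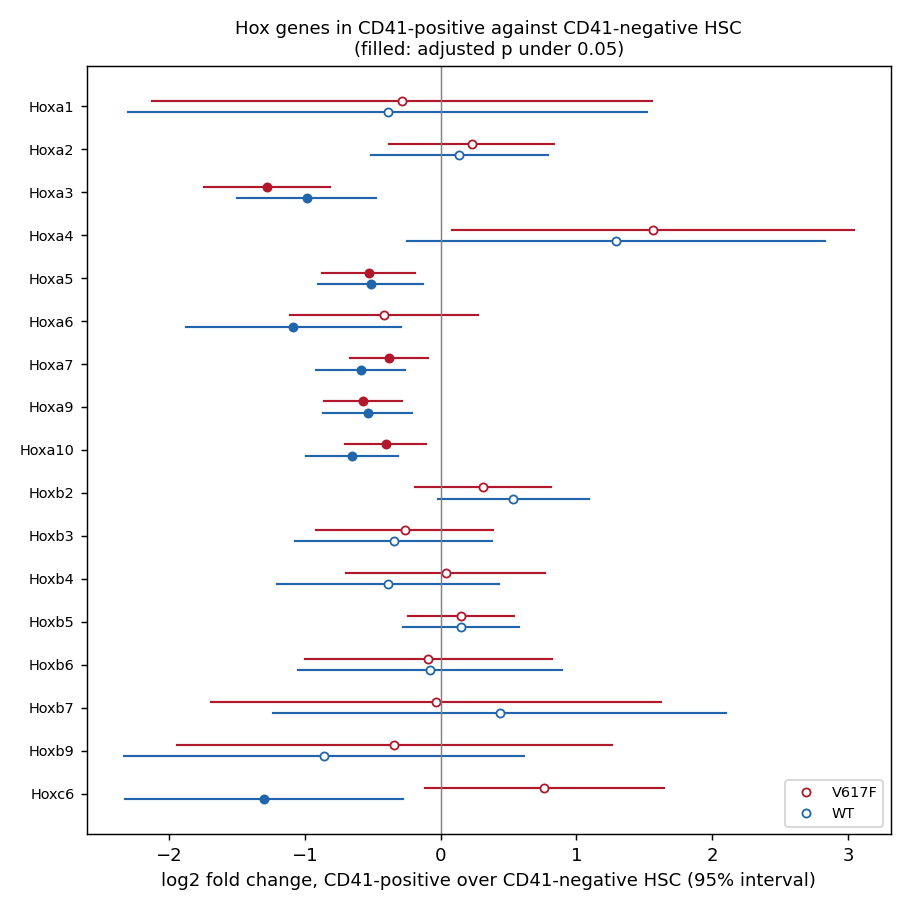
Log2 fold change of CD41-positive over CD41-negative HSC with its 95% interval, for each tested Hox gene except Hoxc9 and Hoxc10, with V617F in red and WT in blue and filled points where the adjusted p was below 0.05. The filled points are Hoxa genes and, in WT, Hoxc6, and each lies left of 0.

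The weight of the HoxA cluster within the Hox RNA was lower in the CD41-positive fraction of both genotypes. Hoxa genes made up 79.5%, 80.7% and 78.6% of Hox counts in V617F CD41-positive HSC and 84.6%, 88.1% and 85.6% in V617F CD41-negative HSC. In WT they made up 77.6% in both CD41-positive libraries, against 86.7%, 83.2% and 84.7% in the CD41-negative libraries. The summed level of all Hox genes was 195.1, 200.3 and 171.1 CPM in V617F CD41-positive HSC and 264.3, 241.5 and 230.5 CPM in V617F CD41-negative HSC. In WT it was 225.6 and 193.1 CPM in CD41-positive HSC, against 297.8, 276.6 and 283.8 CPM in CD41-negative HSC. No library of a CD41-positive group reached the CD41-negative group of its genotype in either quantity, which is given as a description without a test.

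Cell type markers moved with these values. The summed level of 8 stem cell markers other than Hox genes, all 8 with counts in each of these libraries, was 1951 to 2338 CPM in V617F CD41-positive HSC and 3376 to 3759 CPM in V617F CD41-negative HSC, and 2863 to 2875 CPM in WT CD41-positive HSC against 4288 to 6926 CPM in WT CD41-negative HSC. That of 7 megakaryocyte markers, CD41 among them, was 1595 to 2454 CPM in V617F CD41-positive HSC and 320 to 398.8 CPM in V617F CD41-negative HSC, and 2368 to 2526 CPM in WT CD41-positive HSC against 436.5 to 640.2 CPM in WT CD41-negative HSC. The stem cell sum was therefore lower and the megakaryocyte sum higher in CD41-positive HSC, without overlap, and their part in the Hox differences was not tested. The sum of 10 granulocyte markers, 9 or 10 of them with counts in each library, was 51.8 to 136 CPM in V617F CD41-positive HSC and 166 to 200 CPM in V617F CD41-negative HSC, and 82.5 to 91.1 CPM in WT CD41-positive HSC against 114 to 580 CPM in WT CD41-negative HSC. That of 8 monocyte markers, 6 to 8 of them with counts, was 8.67 to 13.6 CPM in V617F CD41-positive HSC and 22.5 to 28.9 CPM in V617F CD41-negative HSC, and 12.1 to 14.2 CPM in WT CD41-positive HSC against 24.0 to 32.6 CPM in WT CD41-negative HSC. Both sums were thus also lower in CD41-positive HSC. By gene, in V617F 5 granulocyte markers had higher and 5 lower values there, and 3 monocyte markers higher and 5 lower ones. In WT all 10 and all 8 had lower values. The sum of 15 stromal and endothelial markers was 71.7 to 76.4 CPM in V617F CD41-positive HSC and 103 to 118 CPM in V617F CD41-negative HSC, and overlapped in WT, at 103 to 133 CPM in CD41-positive HSC and 105 to 131 CPM in CD41-negative HSC. That of 8 erythroid markers was 137 to 183 CPM in V617F CD41-positive HSC and 73.5 to 140 CPM in V617F CD41-negative HSC, and 168 to 194 CPM in WT CD41-positive HSC against 160 to 265 CPM in WT CD41-negative HSC.

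Of the genes that work with or on the Hox clusters, 8 TALE genes were tested. Meis1, the partner of Hoxa9, averaged 551 ± 32.1 CPM in V617F CD41-positive HSC and 633 ± 32.9 CPM in V617F CD41-negative HSC and did not pass (log2 -0.20, adjusted p = 0.356), and passed in none of the other comparisons. In each genotype 2 TALE genes passed as lower in CD41-positive HSC, Meis2 (log2 -1.98, adjusted p = 0.0211) and Meis3 (-1.29, 0.0159) in V617F, and Meis3 (-1.17, 0.0282) and Pbx2 (-0.79, 0.0393) in WT. Over all genes, 34.3% passed in V617F and 34% in WT.

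Among 17 tested genes of the MLL, menin, elongation and Cdx list, many of which are known to keep Hox genes active, 3 were higher and 2 lower in V617F CD41-positive than CD41-negative HSC, and 3 were higher and 4 lower in WT. Mllt3, a partner of the elongation complex known from stem cell maintenance, averaged 88 ± 5.09 CPM in V617F CD41-positive HSC and 140 ± 13.8 CPM in V617F CD41-negative HSC (SD, n = 3 each; log2 -0.67, adjusted p = 0.00129), and in WT its log2 change was -0.63 (adjusted p = 0.00578). Of 18 Polycomb genes, all tested, 4 were higher and 2 lower in V617F CD41-positive HSC, and 3 were higher and 4 lower in WT. The methyltransferase Ezh2 averaged 165 ± 8.65 CPM in V617F CD41-positive HSC and 80.9 ± 4.91 CPM in V617F CD41-negative HSC, 2.04-fold higher (adjusted p = 2.91e-04), and was 2.07-fold higher in WT (adjusted p = 8.66e-04). Its paralog Ezh1 was lower in both, at -0.77 (adjusted p = 0.0032) in V617F and -0.86 (adjusted p = 0.00548) in WT. Suz12 and Jarid2, which work with Ezh2, were higher by 0.57 and 0.51 on the log2 scale in V617F, with adjusted p of 0.00121 and 0.00287, and the Polycomb reader Cbx7 was lower by -0.80 (adjusted p = 0.00236). In WT, Cbx7 changed by -1.10 (adjusted p = 0.00123) and Jarid2 by 0.46 (adjusted p = 0.0117). These counts stand near the 34.3% and 34% of all genes that passed.

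Of 10 tested noncoding genes and neighbours of the clusters, 2 were lower in V617F CD41-positive HSC, Hoxaas2 and Snx10, and 1 was higher in WT, Skap1 (log2 1.33, adjusted p = 0.0257). These shares were below the 34.3% of all genes that passed in V617F and the 34% in WT. Hoxaas2, transcribed from the strand opposite Hoxa3, averaged 0.882 ± 0.272 CPM in V617F CD41-positive HSC and 2.06 ± 0.321 CPM in V617F CD41-negative HSC (SD, n = 3 each; log2 -1.23, adjusted p = 0.0113). Whether reads were counted by strand is not given in the sources used here. By the GENCODE annotation of the same build, 25.4% of the exon bases of Hoxa3, 20.4% of those of Hoxa7, 27.3% of those of Hoxb2 and 52.9% of those of Hoxb3 lie under exons of the opposite strand. In these shared bases, reads of Hoxa3 and of its antisense partners cannot be told apart here, and the same holds for the other 3 genes. Hoxa5, Hoxa6 and Hoxa10 share no exon base with another gene, and Hoxa9 1.52%, with the microRNA gene Mir196b.

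Megakaryocyte progenitors were set against LT-HSC of the same genotype to read the Hox genes in progenitors outside the stem cell gate. In WT, 5 of 15 tested members were lower in MkP and none was higher, against 8.9% of all 14281 genes, 6.58% as lower and 2.32% as higher. They were Hoxa2, Hoxa9, Hoxa10, Hoxb5 and Hoxb6, so that here genes of both the HoxA and the HoxB cluster passed. In V617F, 0 of 15 passed, against 1.09% of all genes, and 3 (20%) had an unadjusted p below 0.05, against 10.4% of all genes. Values pointed down in 14 of 15 members in each genotype, with Hoxa4 the exception in both, and the median log2 difference was -1.41 in V617F and -2.22 in WT, against -0.06 and -0.20 over all genes. In WT, Hoxa2, Hoxb6, Hoxb9 and Hoxc6 stood at 0 CPM in MkP and passed the filter through other groups. These members could only point down there, and the WT median includes them.

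Hoxa9 was at 21.1, 29.1 and 64.3 CPM in WT MkP 30 to 32, against 67, 201 and 121 CPM in WT LT-HSC, 3.4-fold lower (log2 -1.77, SE 0.48, adjusted p = 0.039). Hoxa10 was at 11.4, 6.76 and 11.5 CPM in WT MkP and at 34.0, 63.5 and 26.6 CPM in WT LT-HSC, 4.18-fold lower (log2 -2.06, SE 0.52, adjusted p = 0.0306). Hoxb5 had 1.31, 4.36 and 3.10 CPM in WT MkP, against 38.2, 20.8 and 9.39 CPM in WT LT-HSC, 7.78-fold lower (log2 -2.96, SE 0.82, adjusted p = 0.0428). For all 3 genes the highest MkP library lay below the lowest LT-HSC library, although LT-HSC libraries differed among themselves severalfold for Hoxb5 and Hoxa9.

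Hoxa2 (Entrez 15399), which patterns hindbrain and neural crest, had no count in any WT MkP library, against 0, 7.59 and 2.35 CPM in WT LT-HSC. It was at least 40-fold lower, taking 3 counts per library as the floor (adjusted p = 0.0347), but WT LT-HSC 30 was also at 0, so the groups overlapped. Without LT-HSC 31 the bound was 14.2-fold, with an adjusted p of 0.0538, and without any 1 MkP library the adjusted p was 0.0657 to 0.0677. Hoxb6 (Entrez 15414) likewise had no count in WT MkP, against 2.73, 1.61 and 0 CPM in WT LT-HSC, and was at least 17.5-fold lower (adjusted p = 0.0429). Without LT-HSC 30 its bound was 9.75-fold (adjusted p = 0.061), and without LT-HSC 31 or any 1 MkP library its adjusted p was 0.0563 to 0.0849. Hoxa7 just missed the threshold, at 11.1, 23.5 and 9.18 CPM in WT MkP against 89.5, 65.1 and 23.1 CPM in WT LT-HSC (log2 -2.02, adjusted p = 0.0506), with MkP 31 above LT-HSC 32. Hoxb2 was at 0.151, 11.4 and 0.359 CPM in WT MkP and 19.6, 15.9 and 19.8 CPM in WT LT-HSC, and did not pass with MkP 31 far above the other MkP libraries (log2 -2.22, adjusted p = 0.269). Hoxa5 did not pass either, at 0.126, 3.54 and 5.91 CPM in WT MkP and 0.163, 3.68 and 10.9 CPM in WT LT-HSC (log2 -0.63, adjusted p = 0.817). The groups did not overlap for 7 of 15 members, namely Hoxa3, Hoxa9, Hoxa10, Hoxb2, Hoxb3, Hoxb5 and Hoxb9, which is 46.7% against 20.5% of all genes. These WT counts moved with single libraries. Without LT-HSC 31, 0 members passed (9.86% of all genes), without LT-HSC 30, 3 (11%), and without LT-HSC 32, 6 (12.4%). Without MkP 30, 1 passed (7.6%), without MkP 31, 4 (6.79%), and without MkP 32, 3 (6.97%). A fit of the 2 WT groups alone called 0, with 0.114% of all genes.

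V617F MkP and LT-HSC were tighter. Hoxa9 was at 35.4, 32.8 and 38.2 CPM in V617F MkP, against 84.7, 73.0 and 88.8 CPM in V617F LT-HSC (log2 -1.21, 95% interval -2.23 to -0.19, adjusted p = 0.34). Hoxa7 was at 8.47, 8.09 and 9.42 CPM in V617F MkP and at 32.2, 40.7 and 25.2 CPM in V617F LT-HSC (log2 -1.92, 95% interval -3.19 to -0.65, adjusted p = 0.195). Hoxa10 was at 17.4, 19.0 and 12.5 CPM in V617F MkP, against 28.8, 42.1 and 36.5 CPM in V617F LT-HSC (log2 -1.14, 95% interval -2.24 to -0.04, adjusted p = 0.457). Every MkP library lay below every LT-HSC library for these 3 genes. The same held for Hoxb2, with 5.16, 5.95 and 6.53 CPM in V617F MkP and 14.4, 13.8 and 12.5 CPM in V617F LT-HSC (log2 -1.21, adjusted p = 0.901), for Hoxa5, with 4.47, 4.58 and 3.31 CPM in V617F MkP against 10.9, 13.3 and 9.96 CPM in V617F LT-HSC, and for Hoxb5, with 3.09, 3.14 and 6.55 CPM in V617F MkP against 12.1, 12.8 and 8.96 CPM in V617F LT-HSC (log2 -1.41, adjusted p = 0.621).

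In V617F the groups did not overlap for 12 of the 15 members, 11 with lower values in MkP and Hoxa4 with higher ones, which is 80% against 41.4% of all genes. The fit shares 1 estimate of the spread over all SMART-Seq v2 groups, WT included. Fitted on the V617F libraries alone, 10 of 11 tested members passed as lower, Hoxa2, Hoxa3, Hoxa5, Hoxa7, Hoxa9, Hoxa10, Hoxb2, Hoxb3, Hoxb5 and Hoxb6, where 21.9% of all genes passed. V617F MkP were female and V617F LT-HSC male, and sex and population cannot be told apart in these values.

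**Figure D4:**
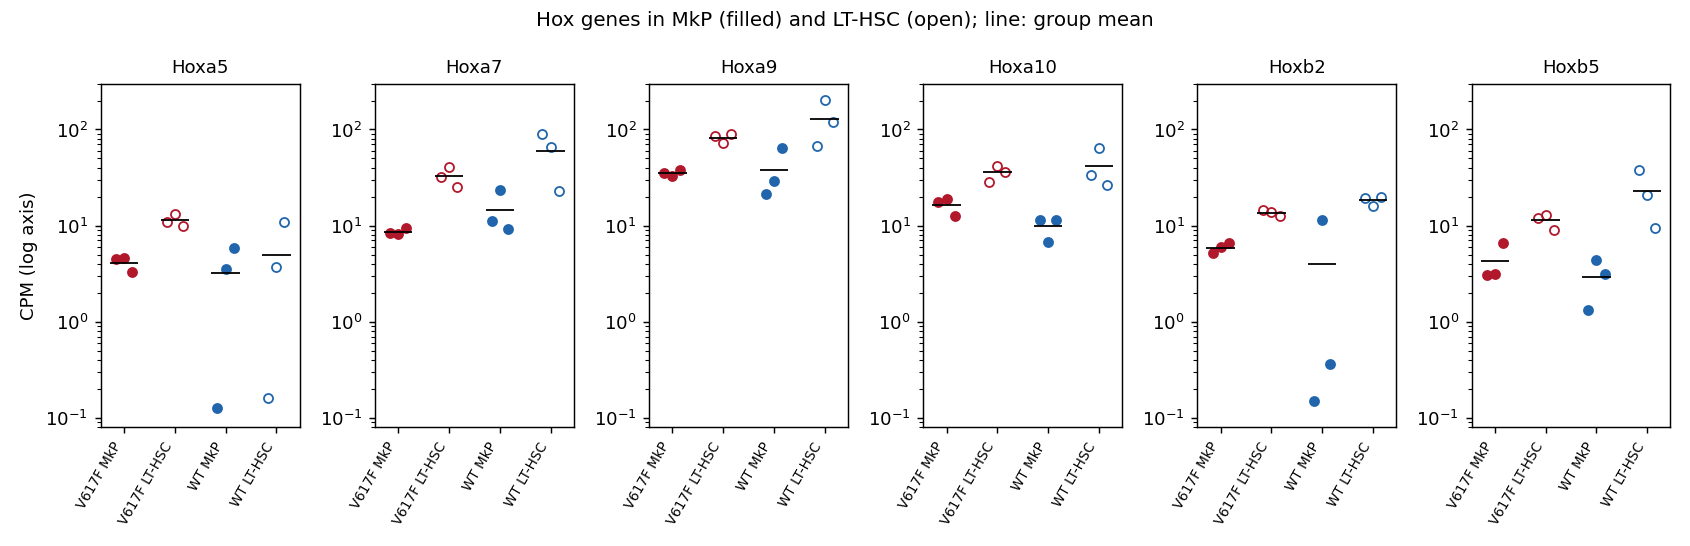
CPM on a log axis of Hoxa5, Hoxa7, Hoxa9, Hoxa10, Hoxb2 and Hoxb5 in each library of V617F MkP, V617F LT-HSC, WT MkP and WT LT-HSC. The V617F points are close together and MkP lie below LT-HSC for all 6 genes, while WT libraries of 1 group are far apart for Hoxa5 and Hoxb2.

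The summed Hox level was 79.0, 78.2 and 82.9 CPM in V617F MkP and 195.9, 210.6 and 196.0 CPM in V617F LT-HSC, and 50.1, 79.8 and 95.1 CPM in WT MkP against 256.0, 381.5 and 221.6 CPM in WT LT-HSC. Markers of other cells differed in the same libraries. The sum of 10 granulocyte markers, all with counts in each of these libraries, was 1131 to 2575 CPM in V617F MkP, 474.9 to 1177 CPM in V617F LT-HSC, 8334 to 12299 CPM in WT MkP and 3746 to 6863 CPM in WT LT-HSC. By gene, however, 3 of these markers had higher and 7 lower values in MkP than in LT-HSC in each genotype. The sum of 8 stem cell markers was 936.4 to 1476 CPM in V617F MkP, 2043 to 2654 CPM in V617F LT-HSC, 1530 to 1822 CPM in WT MkP and 1666 to 4476 CPM in WT LT-HSC. WT LT-HSC 30 held 1666 CPM, within the WT MkP range, against 4476 and 3976 CPM in 31 and 32. Its sum of 10 B and T lymphoid markers was 385 CPM, against 72.9 and 109 CPM. That of 8 erythroid markers was 418 CPM, against 159 CPM in both. That of 15 stromal and endothelial markers was 177 CPM, against 34.6 and 87.2 CPM. Its megakaryocyte sum, 327 CPM, lay between their 390 and 315 CPM. The part of all these markers in the Hox values was not tested.

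Of the 18 Polycomb genes, 2 passed as higher in WT MkP, Ezh2 (log2 1.29, adjusted p = 0.0426) and Jarid2 (1.37, 0.0344), near the 8.9% of all genes, and 0 in V617F, where 1.09% of all genes passed. None of the activator list passed in MkP against LT-HSC. Of the noncoding genes and neighbours, Hoxaas2 and Skap1, 2 of 10 tested, passed as lower in WT MkP, where both stood at 0 in all 3 libraries.

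The last question was what V617F did to the Hox genes within each population, and no member passed in any of the 4. In CD41-positive HSC 0 of 19 passed, against 1.16% of all genes, and 2 of 19 had an unadjusted p below 0.05, against 10.6% of all genes. In CD41-negative HSC 0 of 19 passed, against 13.4% of all genes, and 6 (31.6%) had an unadjusted p below 0.05, fewer than the 36.7% of all genes. In MkP 0 of 15 passed, against 1.75% of all genes, with 3 (20%) at an unadjusted p below 0.05, against 15.3%. In LT-HSC 0 of 15 passed, against 0.063% of all genes, with 0 at an unadjusted p below 0.05, against 12.3%. DESeq2 called 1 member in CD41-positive HSC (Hoxa3), 4 in CD41-negative HSC (Hoxa3, Hoxb5, Hoxb9 and Hoxc10), 1 in MkP (Hoxa2) and 0 in LT-HSC, where it called 3.15%, 23.4%, 7.96% and 3.5% of all genes.

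For the leading HoxA genes of the CD41 fractions the intervals were narrow. Hoxa9 differed by -0.13 on the log2 scale between V617F and WT CD41-positive HSC (95% interval -0.45 to 0.19) and by -0.10 between V617F and WT CD41-negative HSC (-0.38 to 0.19). Hoxa7 differed by 0.11 in CD41-positive HSC (-0.21 to 0.44) and by -0.10 in CD41-negative HSC (-0.38 to 0.19). Hoxa10 differed by -0.05 in CD41-positive HSC (-0.38 to 0.29) and by -0.30 in CD41-negative HSC (-0.59 to 0.00, adjusted p = 0.138). For Hoxa9 both intervals left out a change of the size measured between the fractions, -0.57 in V617F and -0.54 in WT. This did not hold for each gene. In CD41-negative HSC the Hoxa10 interval included its change between the V617F fractions, and the Hoxa7 interval ended close to its own. Both Hoxa5 intervals included its changes between the fractions. Hoxa5 differed by -0.28 in CD41-positive HSC (-0.67 to 0.10) and -0.27 in CD41-negative HSC (-0.61 to 0.07), and Hoxb2 by -0.20 (-0.75 to 0.36) and 0.02 (-0.48 to 0.52).

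Among genes singled out after their values were seen, Hoxb5 and Hoxa3 had the lower values in V617F in both fractions. Hoxb5 was at 8.60, 8.72 and 8.58 CPM in V617F CD41-positive HSC, against 14.5 and 11.2 CPM in WT CD41-positive HSC (log2 -0.57, 95% interval -1 to -0.15, adjusted p = 0.255). In CD41-negative HSC it was at 8.38, 7.19 and 7.73 CPM in V617F and 10.8, 13.9 and 10.1 CPM in WT (log2 -0.58, 95% interval -0.96 to -0.19, adjusted p = 0.0505). No V617F library reached a WT library of its fraction, yet the adjusted p missed the threshold in both. Hoxa3 was at 3.42, 3.84 and 2.3 CPM in V617F CD41-positive HSC and 5.87 and 5.39 CPM in WT CD41-positive HSC (log2 -0.82, 95% interval -1.34 to -0.31, adjusted p = 0.15). In CD41-negative HSC Hoxa3 was at 8.11, 7.64 and 7.38 CPM in V617F and 11, 12.7 and 9.72 CPM in WT (log2 -0.53, 95% interval -0.97 to -0.09, adjusted p = 0.0866). Here too the groups did not overlap.

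The other members with an unadjusted p below 0.05 in CD41-negative HSC were Hoxa2, Hoxb9 and Hoxc6, with lower values in V617F, and Hoxc10. Hoxc10 was higher in V617F, at a mean of 0.461 CPM against 0 CPM in WT. Hoxb9, a posterior HoxB gene, was at 0.238, 0.585 and 0.106 CPM in V617F CD41-negative HSC and 0.798, 0.985 and 1.56 CPM in WT CD41-negative HSC (log2 -1.88, adjusted p = 0.0625), and Hoxc6 had a log2 difference of -1.11 (adjusted p = 0.0731). Groups did not overlap for 7 of 19 members in each fraction, Hoxa2, Hoxa3, Hoxa5, Hoxb2, Hoxb5, Hoxb9 and Hoxc6 in CD41-positive HSC and Hoxa2, Hoxa3, Hoxa6, Hoxb5, Hoxb9, Hoxc6 and Hoxc10 in CD41-negative HSC. This was 36.8% of members in each, against 41.7% of all genes in CD41-positive HSC and 30.3% in CD41-negative HSC. Of these, Hoxc6 in CD41-positive HSC and Hoxc10 in CD41-negative HSC had higher values in V617F, and the rest lower ones. Values were lower in V617F for 14 of 19 members in CD41-positive HSC, with a median of -0.28 against 0.03 over all genes, and for 16 of 19 in CD41-negative HSC, with a median of -0.55 against -0.01. The summed stem cell markers were also lower in V617F, at 1951 to 2338 CPM in V617F and 2863 to 2875 CPM in WT CD41-positive HSC, and at 3376 to 3759 CPM in V617F and 4288 to 6926 CPM in WT CD41-negative HSC. In CD41-negative HSC the megakaryocyte sum was 320 to 398.8 CPM in V617F and 436.5 to 640.2 CPM in WT, and that of 8 erythroid markers 73.5 to 140 CPM in V617F and 160 to 265 CPM in WT. The part of these in the Hox values was not tested. Without WT CD41-negative HSC 4, 5 members passed in CD41-negative HSC, Hoxa3, Hoxa10, Hoxb4, Hoxb5 and Hoxc6, where 41.8% of all genes did.

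**Figure D5:**
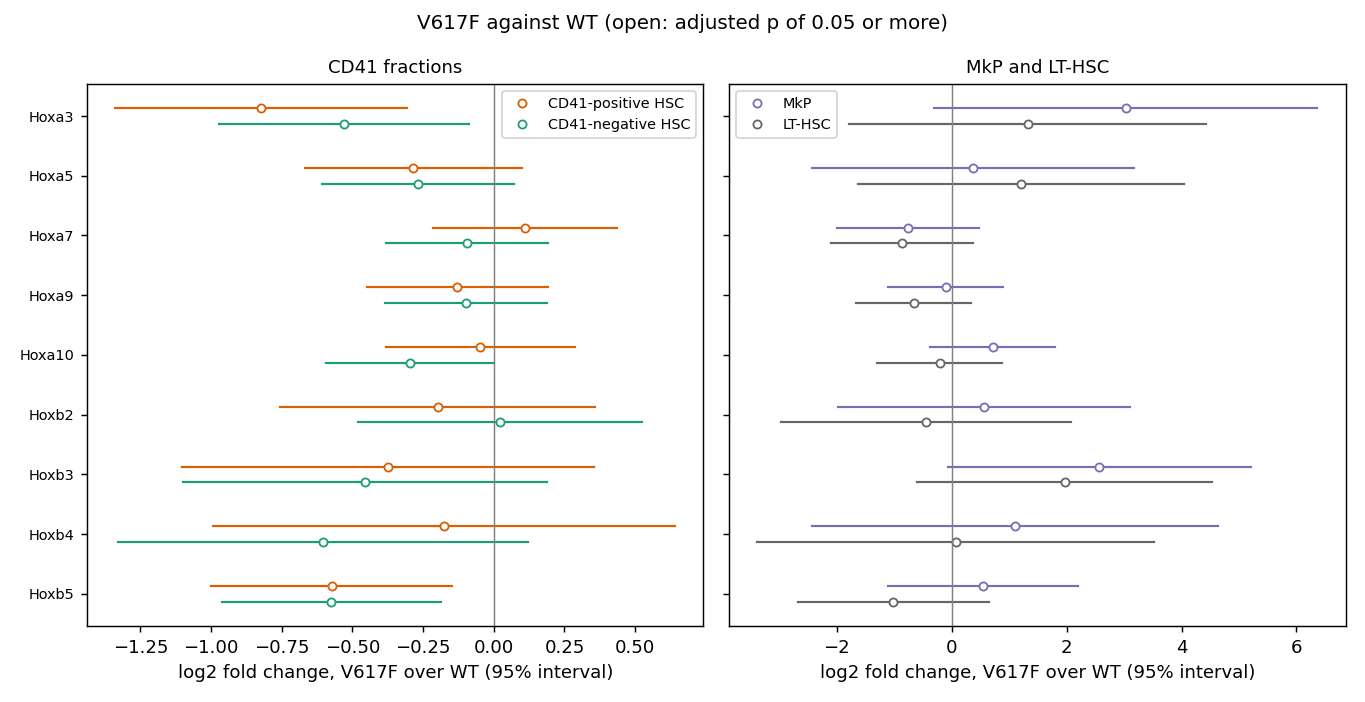
Log2 fold change of V617F over WT with its 95% interval for 9 Hox genes, with CD41-positive and CD41-negative HSC on the left and MkP and LT-HSC on the right. All points are open because no adjusted p was below 0.05, Hoxa9 lies near 0 in both CD41 fractions, Hoxa3 and Hoxb5 lie left of 0 there, and intervals are several times wider in MkP and LT-HSC.

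In LT-HSC and MkP the data leave wide intervals. Hoxa9 differed by -0.66 between V617F and WT LT-HSC (95% interval -1.67 to 0.35), Hoxa7 by -0.86 (-2.09 to 0.38), Hoxa10 by -0.21 (-1.29 to 0.88), Hoxb5 by -1.01 (-2.67 to 0.65) and Hoxb2 by -0.44 (-2.97 to 2.09). A change of -1, 2-fold lower, lay inside the interval of each of these 5 genes. In MkP, Hoxa9 differed by -0.11 between V617F and WT (-1.11 to 0.90), Hoxa10 by 0.72 (-0.37 to 1.81), Hoxa7 by -0.75 (-1.98 to 0.48), Hoxb5 by 0.54 (-1.11 to 2.20) and Hoxb2 by 0.57 (-1.97 to 3.10). Hoxa2, Hoxb6 and Hoxc6 had counts in V617F MkP and none in WT MkP, at least 6.14-, 2.4- and 3.28-fold higher against the floor, with no adjusted p below 0.05. The granulocyte sums given above, 1131 to 2575 CPM in V617F MkP and 8334 to 12299 CPM in WT MkP, differed between the same libraries, as did the number of genes with counts.

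Partners and regulators of the clusters were read beside the 13.4% of all genes that passed between V617F and WT CD41-negative HSC and the 1.16% between the CD41-positive ones. In CD41-negative HSC, 2 of 8 TALE genes were lower in V617F, Meis3, by 3.51-fold (log2 -1.81, adjusted p = 0.00956), and Pbx2 (-1.01, adjusted p = 0.0237). In CD41-positive HSC, 2 were lower, Meis3, by 3.80-fold (log2 -1.93, adjusted p = 0.0339), and Meis2 (-3.19, adjusted p = 0.0259). Of the activator list, Mllt3, Kmt2a and Dot1l were lower in V617F CD41-negative HSC, 3 of 17, with log2 changes of -0.81, -0.63 and -0.70 and adjusted p of 0.00391, 0.0473 and 0.0356. Mllt3 also passed as lower in CD41-positive HSC (log2 -0.85, adjusted p = 0.00966), the 1 of 17 there. Of 18 Polycomb genes, Cbx7 (-0.76, adjusted p = 0.0171) and Phc2 (-0.98, adjusted p = 0.036) were lower in V617F CD41-negative HSC and 0 passed in CD41-positive HSC. The shares of the activator and Polycomb lists in CD41-negative HSC were thus near that of all genes.

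Whether the V617F effect on a Hox gene differed between populations was tested directly. Between CD41-positive and CD41-negative HSC, 0 of 19 members passed, against 0% of all genes, with 1 (5.26%) at an unadjusted p below 0.05, against 8.81% of all genes. That gene, named after its values were seen, was Hoxc6, whose V617F effect was higher by 2.06 in CD41-positive HSC (95% interval 0.72 to 3.41, adjusted p = 0.566). Without WT CD41-negative HSC 4, Hoxc6 passed in this test, and so did 1766 genes in all, 12.3%. The difference of effects was -0.03 for Hoxa9 (-0.46 to 0.40), 0.21 for Hoxa7 (-0.23 to 0.64) and 0.25 for Hoxa10 (-0.20 to 0.70). Between MkP and LT-HSC, 0 of 15 passed, against 0.455% of all genes, with 2 (13.3%) at an unadjusted p below 0.05, Hoxa2 and Hoxb6, against 8.75% of all genes. Only V617F LT-HSC were male in this comparison, so a difference of effects cannot be told apart from sex. The difference there was 0.55 for Hoxa9 (-0.86 to 1.97), 0.10 for Hoxa7 (-1.63 to 1.84) and 0.92 for Hoxa10 (-0.61 to 2.46). DESeq2 called 0 members in both. This is also the test of whether the change between CD41 fractions differed between genotypes, and it gave no call for the 5 HoxA genes that passed in both.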

How the data were processed

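RNA was sorted-cell polyA RNA, amplified with SMART-Seq v2 (LT-HSC, MkP) or v4 (CD41 fractions) and Nextera XT, per the labels' protocols. Per the submitters' processing notes, the authors used STAR 2.5.2a, mm10, R 3.4.2 and limma; how reads were counted (tool, annotation, strand) is not given in the sources used here. Deposited values are raw, whole-number counts for each Entrez gene, beside a gene length column per the file headers.

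The 2 protocols were fitted separately with edgeR 4.0.16 (R 4.3.3), using TMM scaling, filterByExpr on groups with a minimum count of 10, 1 mean per group, the quasi-likelihood F test over all libraries of the protocol, and Benjamini-Hochberg adjustment over all 14467 (v4) or 14281 (v2) genes tested, with a threshold of 0.05. Steps were tested on simulated data. CPM use TMM-scaled totals, and RPKM divide them by the deposited length. Folds against a group at 0 use a floor of 3 counts per library. Replicates are libraries, and nothing in the labels ties numbers to separate mice, so p-values measure only the spread between these libraries.

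Members and lists were chosen with earlier results of these data known. Folds and tests are given for members that passed or averaged at least 10 CPM in the protocol, library values for those and the 6 with the highest RPKM, and for other lists at most 4 passing genes per comparison; 1 gene of these lists is not reported here.

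Equal numbers of the V617F CD41 fractions deviated together (r = 0.431, 0.551 and 0.41 across genes), so they were treated as pairs in an alternative fit, and the block changed no Hox call there. The replicate block was also fitted on equal numbers of the WT CD41 fractions and of WT MkP and LT-HSC. For V617F against WT in the CD41 fractions it joined libraries of both genotypes that share only a number. Other alternatives were DESeq2 1.42.0, RLE size factors, no filter, only the groups compared and each library left out.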

Additional observations from a re-analysis of the deposited data

How the results depend on the processing

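Counts of Hox genes that passed depended on the fit. For CD41-positive against CD41-negative HSC in V617F, 5 passed, 2 with both male libraries left out, and 2 to 3 with each library left out; Hoxa3 and Hoxa9 passed in every one of these. In WT the count was 7, with 4 without the filter, 1 with only the groups compared, 4 with the replicate block and 0 to 9 with each library left out. For MkP against LT-HSC in V617F it was 0, with 1 by DESeq2 (Hoxa7) and 10 with only the groups compared. In WT it was 5, with 3 without the filter, 0 with only the groups compared, 8 with the replicate block and 0 to 6 over omissions. For V617F against WT it was 0 in each population. In CD41-negative HSC this became 4 by DESeq2, 1 without the filter, 4 with the replicate block (Hoxa10, Hoxb5, Hoxb9 and Hoxc10) and 0 to 5 over omissions, and in CD41-positive HSC 1 by DESeq2 and 0 over all omissions. In MkP it became 1 by DESeq2 and 0 to 1 over omissions, and in LT-HSC it was 0 throughout. The differences of V617F effects gave 0 to 1 over omissions in both protocols. Signs turned for members that did not pass: V617F over WT with each library left out ran from -0.15 to 0.40 for Hoxb2 in CD41-negative HSC, -0.19 to 0.11 for Hoxa10 in CD41-positive HSC, -0.47 to 0.24 for Hoxa10 in LT-HSC and -0.35 to 0.55 for Hoxa9 in MkP, and was 0.10 for Hoxb2 in CD41-positive HSC with the replicate block. The difference of effects ran from -0.15 to 0.094 for Hoxa9 and -0.10 to 0.082 for Hoxa5 between CD41 fractions (0.024 without both male libraries), and from -0.35 to 0.72 for Hoxa7 between MkP and LT-HSC. The cause of these shifts was not tested. Over all genes, V617F against WT called 1941 in CD41-negative HSC (3380 by DESeq2, 269 with only the groups compared, 3983 with the block, 366 without males, 282 to 6021 over omissions), 168 in CD41-positive HSC (455 by DESeq2, 262 without the filter, 520 with only the groups compared, 32 to 170 over omissions), 250 in MkP (1137 by DESeq2, 762 with only the groups compared, 46 to 415 over omissions) and 9 in LT-HSC (500 by DESeq2, 0 with only the groups compared, 0 to 23 over omissions). CD41-positive against CD41-negative HSC in WT called 4917, with 2028 when only the groups were compared and 1215 to 7082 over omissions. MkP against LT-HSC called 156 in V617F (693 by DESeq2, 2972 with only the groups compared, 31 to 52 over omissions) and 1271 in WT (2803 by DESeq2, 14 with only the groups compared, 2195 with the block). The difference of effects called 0 between CD41 fractions (6 by DESeq2, 0 to 1766 over omissions) and 65 between MkP and LT-HSC (523 by DESeq2, 0 to 219 over omissions). Equal numbers correlated at r = 0.0744 and 0.0149 between WT CD41 fractions, -0.0381, -0.00584 and 0.0175 between WT MkP and LT-HSC, and -0.164, -0.042 and -0.105 between genotypes, where they share only a number. The labels do not say whether equal WT numbers mark 1 mouse. With 2 or 3 libraries per group these values cannot decide it. No paired analysis was possible because V617F and WT libraries of MkP and of LT-HSC, and V617F MkP and LT-HSC, share no numbers. The male-library omission was chosen after seeing the data. A count of 0 leaves room for a level of up to 0.0597 to 0.171 CPM, 3 counts per library.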

Other observations

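Low members of the clusters held several values that stand in 1 or 2 libraries and were picked after they were seen. Hoxc genes had 85 summed counts in V617F CD41-positive HSC 1 and 103 in V617F CD41-negative HSC 1, against 34 and 31 in the other V617F CD41-positive libraries and 31 and 25 in the other V617F CD41-negative ones. In WT the sums were 20 and 27 in CD41-positive HSC and 40, 52 and 22 in CD41-negative HSC. Hoxc10 gave 26, 2 and 2 counts in V617F CD41-positive HSC and 31, 5 and 3 in V617F CD41-negative HSC, with the high value at number 1 in both fractions, and at most 2 in any WT library of the CD41 fractions. Hoxc9 gave 12, 1 and 1 counts in V617F CD41-positive HSC and 14, 3 and 2 in V617F CD41-negative HSC, with the high values at the same number. In MkP, Hoxc10 gave 8, 2 and 23 counts in V617F and 0 in all 3 WT libraries.

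Of 9 tested Hoxa genes, 2 had higher values in CD41-positive than CD41-negative HSC in both genotypes, Hoxa2 and Hoxa4. Hoxa2 differed little, with means of 1.93 against 1.64 CPM in V617F and 2.90 against 2.63 CPM in WT. Hoxa4 stood at 1.82, 0.897 and 0.563 CPM in V617F CD41-positive HSC. In V617F CD41-negative HSC it stood at 0.441, 0.0450 and 0.565 CPM, so these groups overlapped. In WT it stood at 1.42 and 1.68 CPM in CD41-positive HSC and 0.213, 0.766 and 0.907 CPM in CD41-negative HSC. Its log2 difference was 1.56 in V617F (adjusted p = 0.0942) and 1.29 in WT (adjusted p = 0.173), and neither passed. In V617F MkP it gave 26, 5 and 37 counts, against 0, 0 and 3 in V617F LT-HSC. In WT it gave 174, 0 and 0 counts in MkP and 0, 0 and 44 in LT-HSC.

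WT libraries of the SMART-Seq v2 protocol held other such jumps. Hoxb2 gave 6, 457 and 11 counts in WT MkP, and Hoxa6 gave 0, 36 and 0 counts in WT MkP and 0, 0 and 79 in WT LT-HSC.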
